A study of Drosophila virilis and Drosophila yakuba with 2 samples.

Results

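The odorant-binding protein genes are described here in the heads of flies of 2 Drosophila species, with 40 genes in D. virilis and 6 in D. yakuba. They were chosen by name alone, as the gene models whose symbol begins with Obp and a number, out of 14491 models in the virilis table and 16077 in the yakuba table. The virilis group was 1 total RNA library from the heads of wild-type mated females aged 2 to 5 days, of stock 15010-1051.87. The yakuba group was 1 library of the same kind, sex and age, of stock 14021-0261.01. Levels are given in FPKM, the fragments per kilobase of gene model, scaled to the total of the library. With 1 library per species there is no replicate error and no test, and species, annotation and library preparation cannot be told apart. In whole heads, fewer cells of a type and less RNA per cell cannot be told apart either.

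Odorant-binding proteins are small, soluble proteins that support cells secrete into the fluid of the hair-like sense organs of antennae, mouthparts and legs. They bind odorants, pheromones and tastants around the sensory neurons, and several are also made outside sense organs, for example in fat body, glia and male reproductive tissue of D. melanogaster. The family is sorted by its conserved cysteines, which form disulphide bridges, into a classic class, a Minus-C class that lacks some of them, a Plus-C class that carries extra ones, and double-domain proteins. Many members arose by tandem duplication and lie side by side in the genome. The Minus-C, Plus-C and double-domain classes used here are those of the D. melanogaster genes of the same name. All other symbols, Obp83abL1 and Obp56eL1 among them, were put with the classic class. Protein sequences were not analysed here.

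The label of head tissue fitted the listed photoreceptor, germline and eggshell genes that were found under their symbols. The 5 photoreceptor genes found in virilis lay between 62.9 and 8636 FPKM, and the 4 found in yakuba between 61.1 and 2177 FPKM. The 7 germline and eggshell genes found in virilis reached at most 4.04 FPKM, and the only one found in yakuba, dec-1, had 2.81 FPKM. The 4 muscle genes found in virilis lay between 383 and 1685 FPKM, and the 4 found in yakuba between 136 and 1053 FPKM. The muscle genes found in both were each higher in virilis. Mhc had 1181 FPKM in virilis against 490 in yakuba, Mlc1 1685 against 605, and wupA 464 against 136. The neuron genes found had 12.8 and 33.2 FPKM in virilis and 24.5 FPKM in yakuba. Whether the mix of tissues differed between the libraries was not tested. Totals of 70750000 fragments in virilis and 63000000 in yakuba were estimated as those that placed the largest share of low FPKM values near whole fragments, 58.9% in virilis and 49.0% in yakuba. Intervals given below for FPKM values are 95% Poisson intervals on fragment numbers estimated at these totals. The interval of a log2 ratio is a normal approximation from the same numbers. All of them cover counting error only and take each model's whole span as exon. Symbols were given to 279 virilis models and 497 yakuba models, so the 6 yakuba genes are the named part of the family and do not describe all of it.

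In virilis heads the family was split into a part at 10 FPKM or more and a nearly silent part, with few genes between. Obp44a, in D. melanogaster a fatty-acid-binding protein of glia, was the highest at 4081 FPKM (FBgn0207363, scaffold_12875, 14913876 to 14914376). Obp56d, expressed in D. melanogaster in antennae and mouthparts, followed at 3649 FPKM (FBgn0208533, scaffold_12875, 4044944 to 4045407). They ranked 5 and 6 among all virilis models, and among genes with a symbol only the rhodopsin gene ninaE was higher. The pair made up 72.8% of the FPKM of the whole family, which itself held 2.20% of the summed FPKM of the library.

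**Figure D1:**
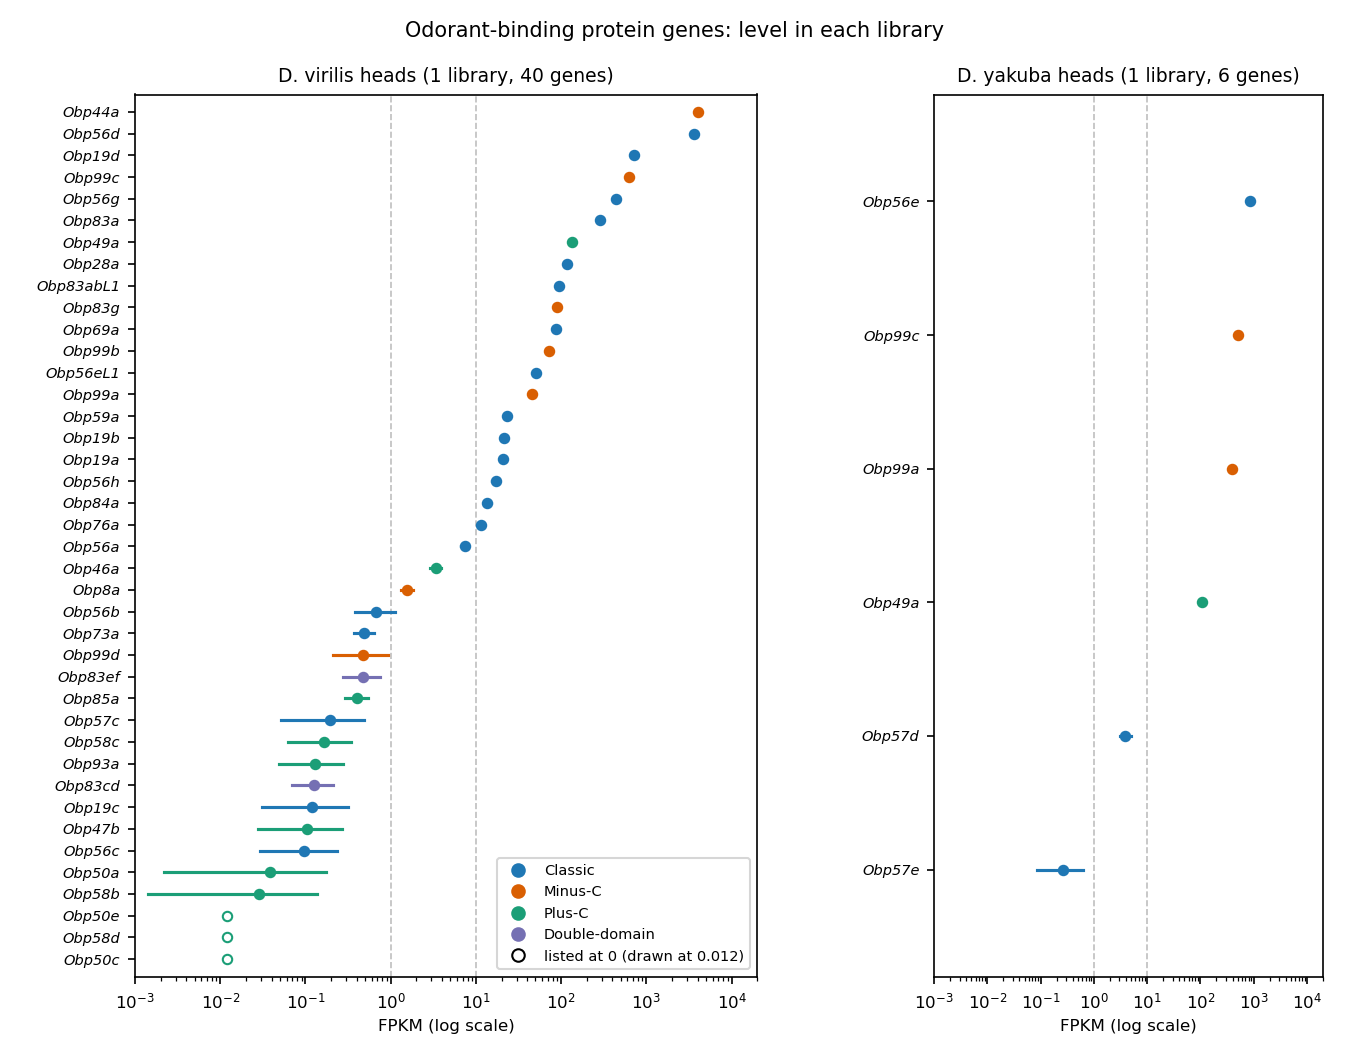
FPKM of each odorant-binding protein gene (log axis) in the virilis library (left) and the yakuba library (right), coloured by class, with bars for the 95% Poisson interval and open circles for genes listed at 0. In virilis 20 genes lie above the dashed line at 10 FPKM and 17 below that at 1 FPKM, and in yakuba 4 genes lie above 100 FPKM.

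At 10 FPKM or more there were 20 of the 40 virilis genes, against 39.8% of all virilis models and 45.2% of those with a symbol. At 100 FPKM or more there were 8 of 40, against 5.03% of all models and 16.8% of models with a symbol. The counts at both levels were thus near the shares of models with a symbol, a set that includes these 40 genes. Under 1 FPKM there were 17 of 40, against 28.9% of all models and 24.7% of those with a symbol, and 3 of these were listed at 0, against 6.16%. The band from 1 to under 10 FPKM held only 3 of 40, against 31.3% of all models and 30.1% of those with a symbol. The family's median of 9.41 FPKM, beside 6.26 FPKM for all models and 8.61 FPKM for models with a symbol, falls in this thinly filled band and describes few of its members. Odorant-binding protein models are short, between 405 and 1730 bp, and among the 6420 virilis models in that range the share at 10 FPKM or more was 33.8% and the share under 1 FPKM was 34.9%.

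**Figure D2:**
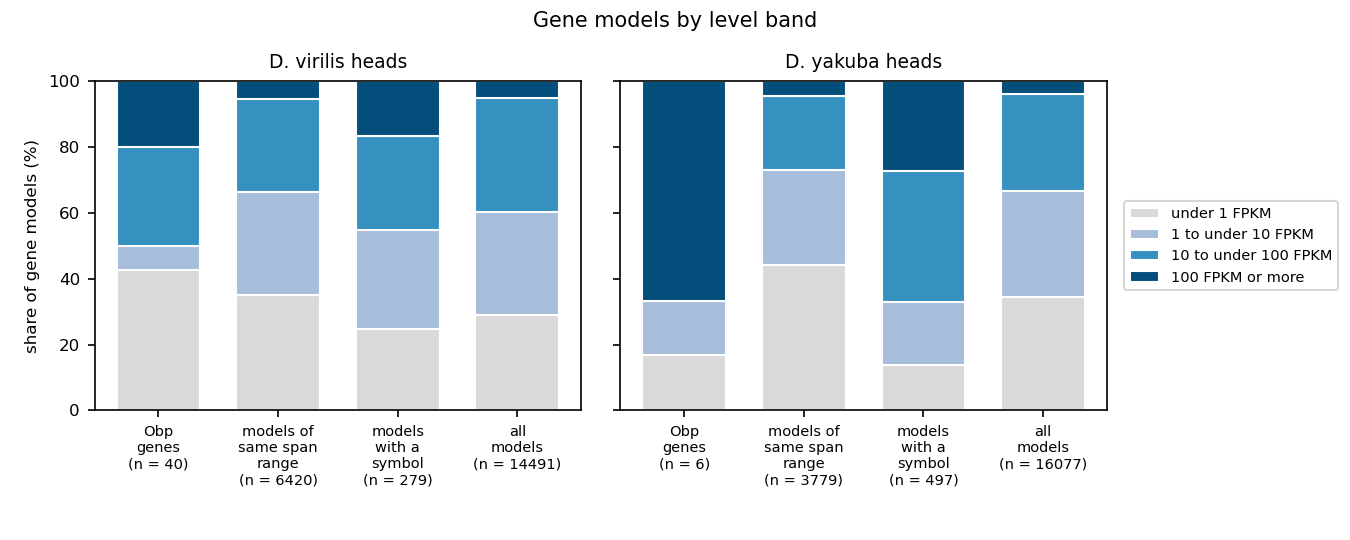
Share of gene models (%) in 4 level bands for the odorant-binding protein genes, for models of the same span range, for models with a symbol and for all models, in virilis (left) and yakuba (right). The band from 1 to under 10 FPKM holds 7.5% of the virilis odorant-binding protein genes and 31.3% of all virilis models.

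The classes differed widely in level within the virilis library. Of the 7 Minus-C genes, 5 reached 10 FPKM, and the class had a median of 73.0 FPKM. Of the 20 classic genes, 14 reached it, with a median of 20.9 FPKM. Only 1 of the 11 Plus-C genes, Obp49a, reached 10 FPKM, 9 were under 1 FPKM and the median was 0.104 FPKM. Both double-domain genes, Obp83ef and Obp83cd, were low, at 0.475 and 0.127 FPKM. These counts set genes of 1 library side by side and were not tested, and the classes were also unequal in span, with medians of 501 bp for Minus-C, 632 bp for classic and 787 bp for Plus-C models.

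Among the Minus-C genes, Obp99c followed Obp44a at 622 FPKM (FBgn0197820, scaffold_12855, 877208 to 877740). Obp83g had 89.0 FPKM, and Obp99b, known in D. melanogaster as a fat body gene with higher expression in males, had 73.0 FPKM. Of 7 listed fat body symbols, 2 were found in the same library, the yolk protein gene Yp1 at 215 FPKM and Amyrel at 0.193 FPKM. These lay far apart, and the part of fat body RNA in the Obp99b level was not tested. Obp99a had 45.4 FPKM. The low members of the class were Obp8a, a seminal protein gene in D. melanogaster, at 1.54 FPKM, and Obp99d at 0.478 FPKM.

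Besides Obp56d, other classic genes are known from the antenna of D. melanogaster. Obp19d, found in D. melanogaster beneath the cuticle of olfactory and taste organs, had 722 FPKM (FBgn0202835, scaffold_13042, 3042670 to 3043297). Obp83a, a gene of the pheromone-sensing trichoid hairs, had 285 FPKM, and Obp28a, a gene of basiconic hairs, had 116 FPKM. Obp69a had 86.4 FPKM. Several other antennal genes were lower. Obp59a, needed for humidity sensing in D. melanogaster, had 23.0 FPKM, and Obp84a, a gene of coeloconic hairs, had 13.7 FPKM. Obp76a, whose D. melanogaster product LUSH takes part in sensing the male pheromone cis-vaccenyl acetate, had 11.4 FPKM (FBgn0199127, scaffold_13049, 13176428 to 13177854). Its model overlapped another gene model at 14.4 FPKM, and fragments from the overlap cannot be told apart here. Of the other members, Obp69a and Obp59a also overlapped a model, at 5.22 and 0.0230 FPKM, both below the members' own levels.

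The remaining classic genes were led by Obp56g. This gene, which in D. melanogaster males also encodes a protein of the mating plug, had 446 FPKM in these female heads (FBgn0208531, scaffold_12875, 3995798 to 3996266). Obp83abL1 had 93.4 FPKM and Obp56eL1 had 51.4 FPKM. Both names mark copies related to other members, and fragments that such copies share could have been split between them. Obp19b, Obp19a and Obp56h, the last a gene that affects male courtship in D. melanogaster, had 21.2, 20.6 and 17.0 FPKM, and Obp56a had 7.40 FPKM. Counting error did not separate Obp19b from Obp19a, with intervals of 19.7 to 22.8 and 19.1 to 22.2 FPKM, nor Obp83g from Obp69a, with intervals of 85.4 to 92.7 and 83.5 to 89.4 FPKM. The order of Obp44a before Obp56d was larger than counting error, with intervals of 4056 to 4107 and 3624 to 3675 FPKM.

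Obp49a was the Plus-C gene apart from its class, at 133 FPKM (FBgn0202281, scaffold_10324, 467764 to 468531). In D. melanogaster its product acts in taste organs, where bitter compounds suppress the response to sugar. Obp46a came next at 3.36 FPKM and Obp85a at 0.404 FPKM. The rest of the class lay between 0 and 0.163 FPKM, with Obp58c the highest of them, Obp93a at 0.129 FPKM and Obp47b at 0.104 FPKM. Obp50c, Obp50e and Obp58d were listed at 0, which without counts can also be a failed estimate.

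The low part of the family rested on very few fragments. Each of the 17 genes under 1 FPKM corresponded to at most 54.0 fragments, and 12 of them to fewer than 10, so much of their order is not resolved at this depth, although some intervals do not overlap. The highest were Obp56b at 0.674 FPKM, with an interval of 0.377 to 1.11 FPKM, and Obp73a, at 0.488 FPKM with 0.367 to 0.637 FPKM. Obp57c had 0.192 FPKM (0.0518 to 0.493 FPKM), Obp19c had 0.119 FPKM (0.0306 to 0.312 FPKM) and Obp56c had 0.0967 FPKM (0.0297 to 0.233 FPKM). Obp50a and Obp58b, at 0.0379 and 0.0286 FPKM, corresponded to about 1 fragment each. All 17 together held 0.0331% of the family's FPKM. Among the 20 genes at 10 FPKM or more, the smallest number counted over the whole span was 379 fragments, for Obp56h.

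The virilis genes were spread over 9 scaffolds, with 17 of them on scaffold_12875. Joined wherever neighbouring members were at most 10 kb apart, 24 of the 40 formed 8 groups of 2 to 4 genes, and 16 stood alone. Of the 16 pairs of direct neighbours within groups, 13 had both symbols in the RefSeq gene table of another virilis assembly, Dvir_AGI_RSII-ME, and all 13 were also next to each other there among the odorant-binding protein genes. The symbols of 34 of the 40 genes matched that table.

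**Figure D3:**
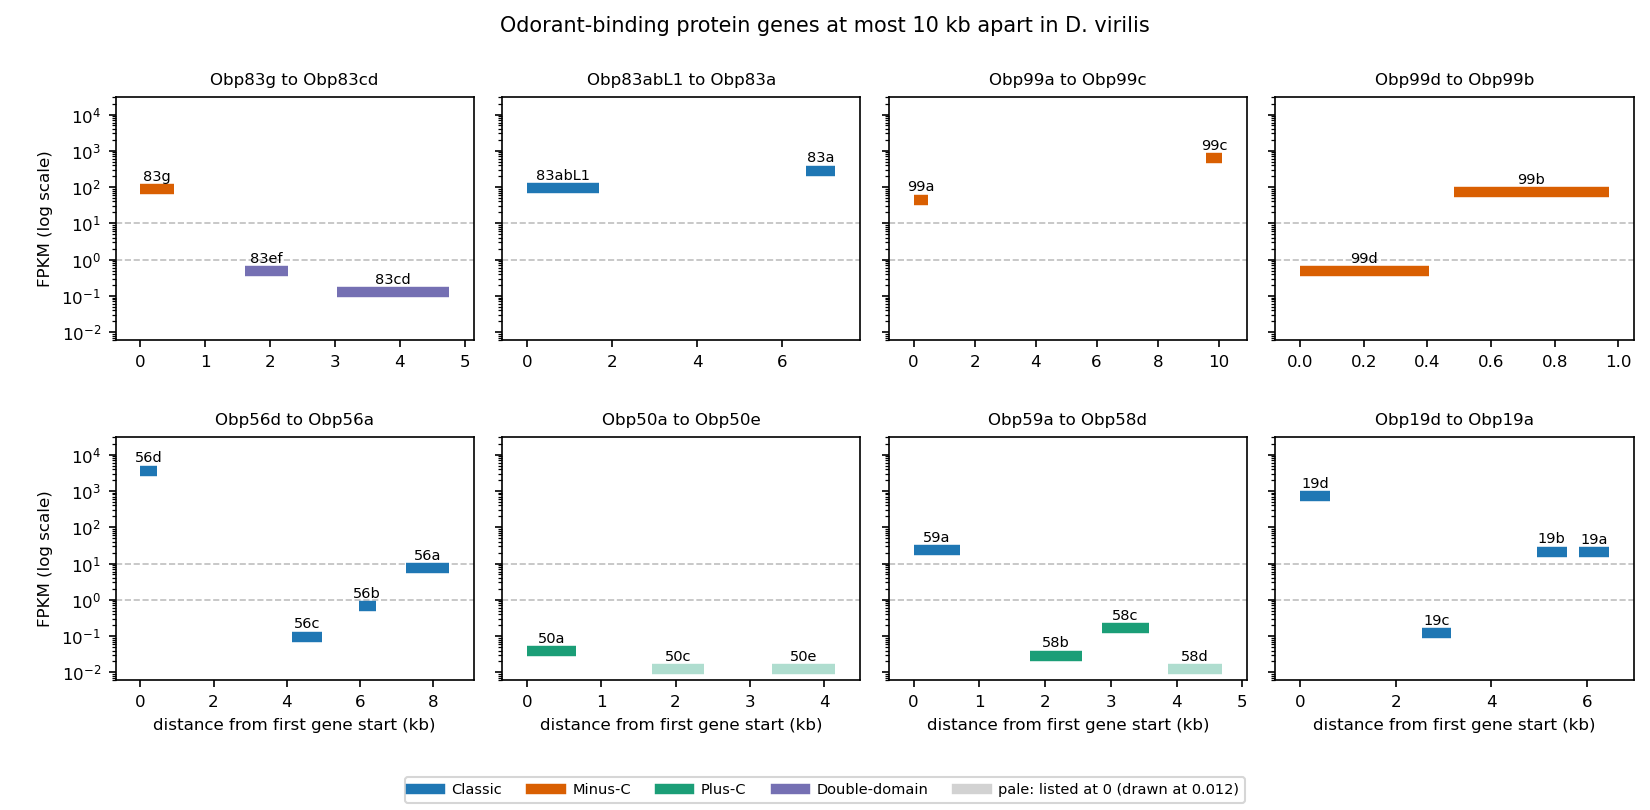
FPKM (log axis) of the odorant-binding protein genes in the 8 virilis neighbour groups against distance from the start of the first gene (kb), with each bar as long as the gene model and pale bars for genes listed at 0. In the group from Obp56d to Obp56a the levels run from 3649 to 0.0967 FPKM within 8.42 kb, while all members of the group from Obp50a to Obp50e are at or below 0.0379 FPKM.

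Neighbouring members were very unequal in level in some groups and alike in others. The group of Obp56d, Obp56c, Obp56b and Obp56a spanned 8.42 kb with no other gene model inside (scaffold_12875, 4044944 to 4053363). Obp56d had 3649 FPKM and Obp56c, 3.67 kb away, had 0.0967 FPKM. Further along, Obp56b and Obp56a had 0.674 and 7.40 FPKM. Towards the other side Obp56eL1 lay 14.2 kb from Obp56d at 51.4 FPKM, followed by Obp56g at 446 FPKM and Obp56h at 17.0 FPKM, so this region held both some of the highest and some of the lowest levels of the family.

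The group on scaffold_13042 (3042670 to 3049131) showed both kinds of neighbour. Obp19d had 722 FPKM, Obp19c 0.119 FPKM, Obp19b 21.2 FPKM and Obp19a 20.6 FPKM. Obp19b and Obp19a, which were 0.250 kb apart, were almost equal, and Obp19c, between these and Obp19d, was the low one. Obp99d and Obp99b were only 77 bp apart (scaffold_12855, 1102796 to 1103766) and had 0.478 and 73.0 FPKM. Obp83g had 89.0 FPKM beside the low double-domain genes Obp83ef and Obp83cd, all within 4.76 kb (scaffold_12822, 1956570 to 1961325). In the group of Obp59a with Obp58b, Obp58c and Obp58d, the classic gene had 23.0 FPKM and the 3 Plus-C genes had 0.0286, 0.163 and 0 FPKM.

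In 3 groups the members were alike in being high or low. Obp83abL1 and Obp83a, 4.87 kb apart (scaffold_12822, 2104334 to 2111580), had 93.4 and 285 FPKM. Obp99a and Obp99c, with 9.09 kb and 5 other gene models between them, had 45.4 and 622 FPKM. Obp50a, Obp50c and Obp50e (scaffold_12875, 13562160 to 13566312) had 0.0379, 0 and 0 FPKM, and a gene model without a symbol inside that group was also listed at 0.

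Over the 16 neighbour pairs, the median absolute difference in level was 1.96 on the log2(FPKM + 1) scale. It was 1.49 over the 11695 pairs of adjacent gene models at most 10 kb apart in the whole virilis table, and 3.77 over all 780 pairs of virilis members. Of the 16 pairs, 8 differed 4-fold or more, against 40.5% of adjacent gene models, a share near that background. Pairs that share a member are not independent, and no test was made.

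In yakuba heads, 4 of the 6 named genes were high. Obp56e had 864 FPKM (FBgn0068110, 2R, 13570172 to 13570626) and ranked 83 among all yakuba models. Obp99c had 513 FPKM (FBgn0068108, 3R, 20959752 to 20960785), Obp99a had 395 FPKM (FBgn0068109, 3R, 20974561 to 20975073), and Obp49a had 106 FPKM (FBgn0068111, 2R, 8365551 to 8366310). These 4 were also the genes at 10 and at 100 FPKM or more, where 33.5% and 3.94% of all yakuba models stood, and 67% and 27.4% of yakuba models with a symbol. A count of 4 in 6 at 10 FPKM is near the share of named models, which include these 6.

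The remaining yakuba genes were Obp57d and Obp57e, taste genes that affect the response of D. melanogaster and its relatives to acids of a toxic host fruit. Obp57d had 3.90 FPKM, with an interval of 3.03 to 4.94 FPKM (2R, 12760321 to 12760772). Obp57e, 0.330 kb away, had 0.265 FPKM with an interval of 0.0860 to 0.618 FPKM, which corresponded to 5.00 fragments. They were the only neighbour group of yakuba, and their intervals did not overlap. In virilis the related name Obp57c had 0.192 FPKM. The named genes of yakuba held 0.447% of the summed FPKM of that library, a smaller and differently named set than the 2.20% of virilis.

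The same symbol stood in both tables for 3 of the genes, Obp49a, Obp99a and Obp99c. Obp49a stood at 133 FPKM in virilis heads, against 106 FPKM in yakuba heads. Obp99c stood at 622 FPKM in virilis heads, against 513 FPKM in yakuba heads. Obp99a stood at 45.4 FPKM in virilis heads, against 395 FPKM in yakuba heads. The first and second of these were close in both libraries, and Obp99a was far lower in virilis.

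**Figure D4:**
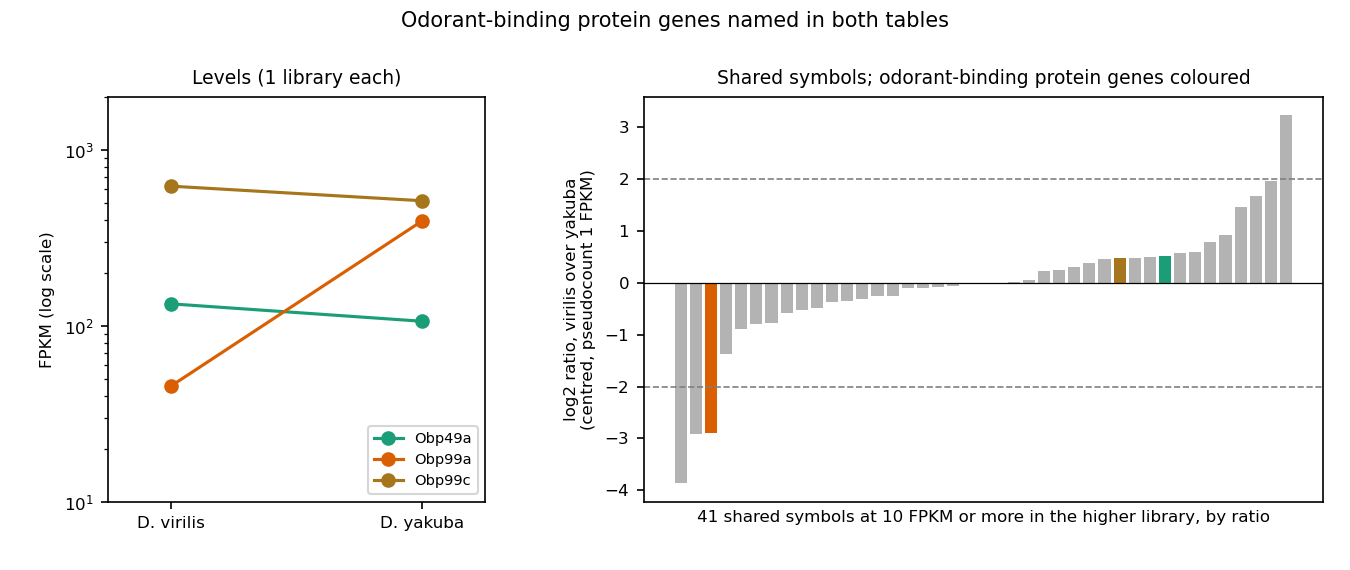
Left, FPKM (log axis) of the 3 odorant-binding protein genes named in both tables, virilis beside yakuba. Right, centred log2 ratio of virilis over yakuba for the 41 shared symbols that reached 10 FPKM in a library, with dashed lines at 4-fold, where Obp99a lies at -2.90 and Obp49a and Obp99c at 0.53 and 0.47.

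Ratios were taken as log2((virilis + 1)/(yakuba + 1)) and centred on their median, -0.20, over the shared symbols that reached 1 FPKM in each library. A gene was called where its ratio passed 4-fold and the higher library had at least 10 FPKM, as 5.19% of the 77 shared symbols were, 1.3% as higher in virilis and 3.9% as higher in yakuba. Of the 41 that reached 10 FPKM in a library, 9.76% were called. Of the 3 odorant-binding protein genes, Obp99a was called, with a log2 ratio of -2.90 and a counting interval of -2.99 to -2.81, or 7.45-fold lower in virilis. It ranked 4 by size of ratio among the 41 shared symbols at 10 FPKM or more. Obp49a, with a log2 ratio of 0.53, and Obp99c, with 0.47, lay near the median absolute ratio of those 41, 0.48. The direction for Obp99c depended on its gene models, of 533 bp in virilis and 1034 bp in yakuba. With FPKM multiplied by the model span, its log2 ratio was -0.64. This product undoes the division by length only roughly, because Cufflinks values divide by span less fragment length. For Obp49a and Obp99a the models were alike in span, 768 and 489 bp in virilis against 760 and 513 bp in yakuba.

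Obp99a and Obp99c are neighbours in both species, 9.09 kb apart in virilis and 13.8 kb apart in yakuba, in each with 5 other gene models between them. Within the virilis library Obp99c was 13.7-fold higher than Obp99a, and within the yakuba library it was 1.30-fold higher. These fold values do not depend on how the libraries were scaled to each other. On the log2(FPKM + 1) scale, where the pseudocount leaves a slight dependence, the difference was 3.75 in virilis and 0.38 in yakuba. With FPKM multiplied by the model span the differences were 3.84 in virilis and 1.38 in yakuba. The 5 models between them had a median of 16.5 FPKM in virilis, from 0.295 to 54.4 FPKM, and of 7.51 FPKM in yakuba, from 0.974 to 49.4 FPKM.

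Genes that act beside odorant-binding proteins could be described only in part. None of the odorant, gustatory or ionotropic receptor genes, which encode the channels of the sensory neurons, carried a symbol in either table, and neither did any gene of the CheA and CheB families of contact chemosensation. A list of 18 further symbols of sense organ fluid and membranes also held older names of odorant-binding protein genes, such as lush for Obp76a. Under these symbols 0 genes were found in virilis and 3 in yakuba. A symbol not found therefore does not mean that the gene was absent. The chemosensory protein genes PebIII and Phk-3, members of another family of small carrier proteins, had 398 and 148 FPKM in yakuba. The esterase gene Est-6, whose product breaks down pheromone esters in D. melanogaster, had 4.25 FPKM. PebIII thus stood in yakuba at the level of Obp99a, and Est-6 at that of Obp57d.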

How the data were processed

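For each library the authors deposited FPKM values per gene model, with its identifier, name and locus, per the file headers. The tools were TopHat and Cufflinks, per the submitters' processing notes. No version, genome build or strand setting was stated in what was used here. Libraries were made from 1 µg of total RNA with a stranded kit, per the labels' protocols.

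Members were the models whose first name, without species prefix and transcript suffix, began with Obp and a digit. The members, the lists, the classes and the rule for named genes (any member, and up to 4 genes of each other list) were chosen with earlier results of these data known. Starts in the locus column were read as counting from 0, because subtracting them from the ends gave multiples of 3 in 66.8% (virilis) and 67.6% (yakuba) of models shorter than 900 bp. Printed starts count from 1. Totals were the values, with a fragment length of 160 bp in virilis and 175 bp in yakuba, that brought most low FPKM values (58.9% and 49.0%) within 0.04 of whole fragments. Ratios used a pseudocount of 1 FPKM. Because Cufflinks-style values divide by span less fragment length, division by the whole span would give 0.605 to 0.908 of the virilis members' deposited values. Other pseudocounts, thresholds, centrings, lengths and joining distances were tried. Python 3.11.15, pandas 2.3.3 and SciPy 1.17.1 were used.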

Additional observations from a re-analysis of the deposited data

How the results depend on the processing

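The counts of members at 10 FPKM or more, of virilis neighbour groups and of shared genes past 4-fold stayed within 1.5 times under every alternative tried for them, and some choices were added after seeing the data. With members at 1 FPKM or more only, the virilis median was 73.0 FPKM and the yakuba median 395 FPKM. Division by the whole span, added later, gave medians of 8.26 and 171 FPKM. The family's share of the summed FPKM was 0.677% in virilis and 0.491% in yakuba without the 10 highest models, which in virilis include Obp44a and Obp56d, and 1.36% and 0.243% without the highest member. Joined up to 20 or 50 kb, yakuba had 2 neighbour groups. The virilis neighbour difference was 2.71 when joined up to 50 kb. Without centring, the log2 ratios of Obp49a, Obp99a and Obp99c were 0.33, -3.10 and 0.28. Centred on the ribosomal protein pairs they were 0.69, -2.73 and 0.64. With FPKM multiplied by the model span they were 0.38, -3.10 and -0.64, so Obp99c reversed, its yakuba model being the longer. Divided by the whole span, Obp99c had 0.18. The log2 difference of Obp99c and Obp99a was 3.64 in virilis with a pseudocount of 5 FPKM. With FPKM multiplied by the model span, this difference was 3.84 in virilis and 1.38 in yakuba. No paired analysis was possible because each species has 1 library. The depth leaves much of the order among the genes under 1 FPKM unresolved.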
